A study of Mus musculus with 17 samples.

Results

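Expression of 36 genes of cholesterol and fatty acid synthesis was examined in sorted mouse microglia, the resident macrophages of the central nervous system. The genes were taken from a fixed list of 18 enzymes of the sterol pathway, 6 regulators and transport proteins, and 12 enzymes of fatty acid synthesis, elongation and desaturation, which does not hold every enzyme of either pathway. All 36 symbols were found among the 41388 Ensembl genes counted, each under a single ID, and 35 passed the filter on low counts. RNA-seq had been made from 17 libraries of C57BL/6 mice: total microglia of unmanipulated adults (n = 3), CD11c- (n = 4) and CD11c+ (n = 4) microglia of neonates in the first postnatal week, and CD11c- (n = 3) and CD11c+ (n = 3) microglia of adult females with experimental autoimmune encephalomyelitis (EAE), a model of multiple sclerosis induced by immunisation with a myelin peptide. Cells were sorted as CD45dim CD11b+ and split by CD11c, an integrin that marks a microglial subset frequent in neonates and in inflamed tissue. Each library was made from a pool of mice. The neonates were of mixed sex. The adult libraries were titled as total microglia but annotated as CD11c-, and age, sex and immunisation cannot be told apart from the groups. Library numbers below are those in the sample titles.

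Cholesterol is built from acetyl-CoA through the mevalonate pathway, squalene and lanosterol, whereas fatty acids are built from acetyl-CoA by carboxylation and repeated condensation and are then elongated and desaturated. Both arms are controlled by sterol regulatory element-binding proteins (SREBPs), encoded by Srebf1 and Srebf2, which are escorted by SCAP from the endoplasmic reticulum and retained there by INSIG proteins when sterols are abundant. In the developing brain both pathways are best known for supplying the lipids of myelin, and in macrophages they are linked to membrane growth and to activation.

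The start-site regions of 3 members are shown because they stand for the different patterns described below: Hmgcs1 and Fasn, which rose in both neonatal groups, and Mvd, which was highest in EAE. Each is the 150 bases before the RefSeq start on GRCm38.p6, read 5′ to 3′ on the strand of the gene, with matches to the SREBP element TCACNCCAC, the NF-Y box CCAAT and the GC box GGGCGG, on either strand, in capitals.
Hmgcs1 (chr13:119690201-119690350, + strand): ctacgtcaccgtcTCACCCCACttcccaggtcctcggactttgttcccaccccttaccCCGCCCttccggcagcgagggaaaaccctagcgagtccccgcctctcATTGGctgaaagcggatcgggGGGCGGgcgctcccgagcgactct
Mvd (chr8:122443423-122443572, - strand): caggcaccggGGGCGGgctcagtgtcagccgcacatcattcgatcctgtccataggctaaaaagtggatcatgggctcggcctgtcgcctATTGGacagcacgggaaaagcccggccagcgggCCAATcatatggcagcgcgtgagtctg
Fasn (chr11:120824548-120824697, - strand): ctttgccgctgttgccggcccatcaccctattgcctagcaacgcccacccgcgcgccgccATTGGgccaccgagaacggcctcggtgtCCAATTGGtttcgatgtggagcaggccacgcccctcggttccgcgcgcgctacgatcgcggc

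The SREBP element began 137 bases before the Hmgcs1 start. In the wider windows from 250 bases before to 50 after the start, which were given for 29 of the 36 members, this strict element was found in 1 member, Hmgcs1, and in 1.44% of 27025 genes. The NF-Y box was found in 24 of 29 members (82.8%) against 41.1% of all genes, and the GC box also in 24 of 29 (82.8%) against 38.2%. All genes here are those with a window, expressed in microglia or not, and the shares among expressed genes were not determined. Each of these boxes was found in 14 of the 15 sterol enzymes with a window, whereas among the 9 fatty acid enzymes with a window 6 held the NF-Y box and 5 the GC box. No base of the 3 printed stretches was shared by different motifs, and in Fasn a pair of NF-Y matches on opposite strands overlapped each other. A match of letters is not evidence of binding.

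Library totals ranged from 5115489 to 10436066 counts, and levels are given as CPM, the counts of a gene scaled to a common library size. The 9 microglial markers used, among them Cx3cr1 and P2ry12, had counts in every library and summed to 33196 to 37407 CPM in adults and, lower in every case, to 20691 to 31663 CPM in the other libraries. Summed markers of neutrophils were 6782 to 13015 CPM in EAE CD11c- libraries and 20.5 to 1830 CPM in the others, and those of border macrophages were 4620 to 7860 CPM in neonatal CD11c+ libraries and 554 to 2926 CPM in the others. Markers of oligodendrocytes, the myelin-forming cells in which these pathways are very active, summed to 67.6 to 184 CPM, with ranges that overlapped between adult, EAE and neonatal CD11c+ libraries. By the test defined below, 2 of the 5 tested oligodendrocyte markers rose and 1 fell in neonatal CD11c+ against adult. In neonatal CD11c- 0 rose and 2 fell. Astrocyte markers summed to 123 to 133 CPM in adults, 26.5 to 50.8 CPM in neonates and 148 to 218 CPM in EAE. The lower neonatal sum did not hold for each astrocyte marker. Of the 4 tested, 1 rose and 1 fell against adult in each neonatal group, and in CD11c+ 3 had a log2 fold change above 0. Monocyte markers were highest in EAE (27.7 to 119 CPM against 5.29 to 27.1 CPM in the others), and endothelial markers lowest there (15.4 to 27.02 CPM against 31.2 to 73.3 CPM). Neuronal markers were at 2.60 to 14.2 CPM in neonates and 0.671 to 2.64 CPM in the others. Those of oligodendrocyte precursors summed to 1.79 to 7.08 CPM in neonatal CD11c+, 0.576 to 3.23 CPM in neonatal CD11c- and 0.108 to 0.692 CPM in the others. The 2 precursor markers tested rose in neonatal CD11c+ against adult. Markers of T cells and dendritic cells were at no more than 19.9 CPM in any library. Libraries 17 (neonatal CD11c-) and 1 (EAE CD11c+) stood apart by 5.10% and 2.23% mitochondrial counts, against 0.587% to 1.56% in the others. The part of these differences in the results below was not tested. In sorted bulk RNA, fewer cells of a type and less RNA per cell cannot be told apart.

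Against adult microglia, the pathway genes moved mostly upward in neonates and less in EAE. A gene is said to have risen or fallen where edgeR's quasi-likelihood test, fitted on 13060 genes, gave a p of at most 0.01 after Benjamini-Hochberg adjustment. In neonatal CD11c- microglia 14 of the 35 tested members rose and 2 fell, where 13.4% of all genes rose and 11.8% fell. In neonatal CD11c+ microglia 14 rose and 1 fell, where 18.7% of all genes rose and 14.6% fell. In EAE CD11c- microglia 4 rose and 1 fell (11.2% and 4.55% of all genes), and in EAE CD11c+ microglia 6 rose and 2 fell (15.8% and 10.6%). The shares of members that rose were thus 40% in both neonatal groups, above the background, and 11.4% and 17.1% in EAE, close to it in this fit. An alternative fit used limma voom with quality weights, which let libraries count unequally, and is called limma voom below. With limma voom, 34.3% and 48.6% of members rose in EAE CD11c- and CD11c+, against 18.4% and 23.4% of all genes. In neonatal CD11c- and CD11c+ it gave 48.6% and 57.1%, against 17.9% and 27.4%. The EAE counts depended on libraries 1 and 17: without both, 9 and 12 members rose in EAE CD11c- and CD11c+ (25.7% and 34.3%, against 16.4% and 21.0% of all genes), and 16 and 19 in neonatal CD11c- and CD11c+ (45.7% and 54.3%, against 17.5% and 24.0%). The median log2 fold change of the members was 0.37 in neonatal CD11c-, 0.52 in neonatal CD11c+, and 0.28 in either EAE group, whereas the median over all genes lay within 0.02 of 0 in each. Of the members, 12 rose in both neonatal groups, 2 rose in all 4 groups (Sqle and Elovl1), 11 rose in a neonatal group but passed the test upward in no EAE group, and 15 had no call against adult in any group. The shares of all genes that meet these joint rules were not determined. Some of the 11 missed the threshold narrowly in EAE, such as Cyp51 in EAE CD11c+ (adjusted p = 0.0101). All 4 comparisons share the adult libraries.

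**Figure D1:**
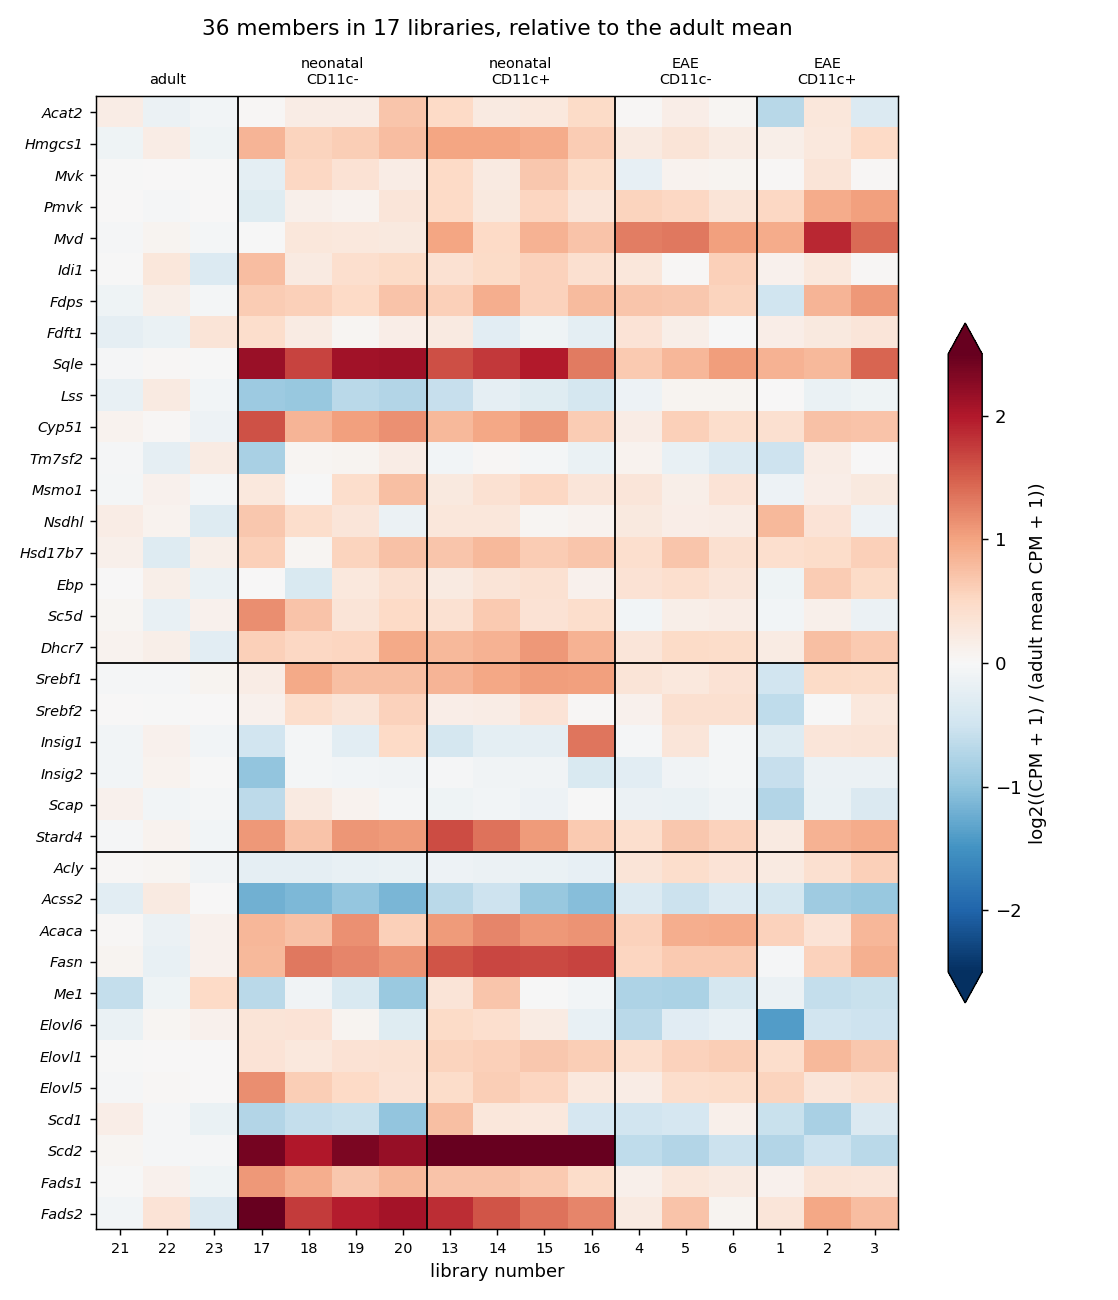
Level of each of the 36 members (rows, in pathway order, with lines between sterol enzymes, regulators and fatty acid enzymes) in each of the 17 libraries (columns), as log2 of CPM + 1 relative to the adult mean, where red is above and blue below the adult mean. Scd2, Sqle and Fads2 are the darkest red rows in neonates, Acss2 is blue in neonates, Scd2 turns pale blue in EAE, and Insig1 is red in library 16 of the neonatal CD11c+ group.

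HMG-CoA synthase (Hmgcs1), an early enzyme of the mevalonate pathway, rose in both neonatal groups. Its level was 29.4, 36.4 and 29.3 CPM in adult libraries 21, 22 and 23. In neonates it was 57.6, 47.3, 48.9 and 54.5 CPM in CD11c- libraries 17 to 20, and 63.9, 63.6, 61.3 and 49.6 CPM in CD11c+ libraries 13 to 16. All 8 neonatal libraries lay above all adult ones, with log2 fold changes of 0.71 (SE 0.13, adjusted p = 0.000238) in CD11c- and 0.91 (SE 0.13, adjusted p = 1.23e-05) in CD11c+. In EAE the means were 37.8 ± 1.61 (SD, n = 3) and 39.5 ± 5.07 CPM (SD, n = 3), and neither group passed the test (adjusted p = 0.187 and 0.0728). Part of the Hmgcs1 transcript (11.6% of its 50-base stretches) also occurs in other genes, chiefly an antisense gene.

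Squalene epoxidase (Sqle), which introduces the oxygen of the sterol and is a control point of the pathway, had the largest fold changes of the sterol enzymes in neonates. It was at 3.30, 3.51 and 3.36 CPM in the adult libraries and at 18.6, 13.2, 17.9 and 18.0 CPM in neonatal CD11c-. Neonatal CD11c+ libraries gave 12.5, 14.0, 16.4 and 9.76 CPM. The log2 fold changes were 2.31 (SE 0.23, adjusted p = 3.09e-07) and 1.95 (SE 0.23, adjusted p = 1.64e-06), and no neonatal library was near an adult one. EAE CD11c- libraries 4, 5 and 6 gave 5.94, 6.80 and 8.05 CPM and EAE CD11c+ libraries 1, 2 and 3 gave 7.05, 6.75 and 11.1 CPM. These lay between adult and most neonatal values, and Sqle rose in EAE as well, by 1.02 (SE 0.24, adjusted p = 0.00445) and 1.29 (SE 0.25, adjusted p = 0.00043) on the log2 scale. The EAE CD11c- call was lost without any 1 of the adult libraries or without EAE CD11c- library 5 or 6 (adjusted p up to 0.0259).

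Downstream of squalene, lanosterol synthase (Lss) and lanosterol demethylase (Cyp51) moved in opposite directions. Lss closes the sterol rings and was at 13.1, 18.0 and 14.3 CPM in adult libraries, against 7.60, 7.38, 9.10 and 8.74 CPM in neonatal CD11c-. It fell there (log2 fold change -0.88, SE 0.15, adjusted p = 0.000173). Neonatal CD11c+ libraries lay between, at 9.83, 12.8, 12.1 and 10.9 CPM (adjusted p = 0.0284), and EAE means of 15.2 ± 1.19 and 14.2 ± 0.912 CPM (SD, n = 3 each) overlapped the adult values. Cyp51, the next enzyme, was at 17.3, 16.5 and 14.6 CPM in adults and at 50.7, 30.0, 33.9 and 37.0 CPM in neonatal CD11c-, where library 17 was the highest. It was at 29.0, 32.6, 35.6 and 25.5 CPM in neonatal CD11c+, and rose in both groups (log2 fold change 1.23, SE 0.18, adjusted p = 2.86e-05, and 0.93, SE 0.18, adjusted p = 0.000305). The EAE CD11c+ value of Cyp51 missed the threshold narrowly, with 25.3 ± 3.18 CPM (SD, n = 3) and an adjusted p of 0.0101.

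At the end of the pathway, Dhcr7, the reductase that yields cholesterol, was at 26.4, 27.7 and 20.4 CPM in adults. Neonatal CD11c- libraries gave 38.0, 36.1, 36.5 and 48.7 CPM, and CD11c+ libraries gave 44.3, 46.4, 54.0 and 46.4 CPM. It rose in both (log2 fold change 0.68, SE 0.15, adjusted p = 0.0019, and 0.94, SE 0.15, adjusted p = 6.23e-05) and in EAE CD11c+ (0.57, SE 0.16, adjusted p = 0.00892), where the libraries gave 28.7, 42.5 and 39.4 CPM. The neonatal CD11c- call was lost without adult library 23, and the EAE CD11c+ call was lost without any 1 of 14 libraries, all but 17, 20 and 1. Of the late enzymes, Sc5d rose in neonatal CD11c- (24.3 ± 6.68 against 14.5 ± 1.65 CPM in adults, adjusted p = 0.00359), and in neonatal CD11c+ it was at 20.4 ± 2.12 CPM with an adjusted p of 0.0305. The Sc5d call was lost without adult library 21 or 22. Hsd17b7 rose in neonatal CD11c+ (7.12 ± 0.448 against 3.97 ± 0.86 CPM, adjusted p = 0.00248), a call lost without adult library 22 or neonatal CD11c+ library 14. Of the 17 tested sterol enzymes, 29.4% rose and 5.88% fell in neonatal CD11c-, against 13.4% and 11.8% of all genes. In neonatal CD11c+ 35.3% rose and 0% fell, against 18.7% and 14.6% of all genes. The other 11 had no call in each neonatal group, among them Mvk, Fdps, Tm7sf2, Msmo1, Nsdhl and Ebp in both groups.

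Decarboxylation of mevalonate diphosphate to isopentenyl diphosphate is carried out by Mvd, whose pattern differed from that of Sqle and Hmgcs1. Mvd was at 8.69, 9.46 and 8.66 CPM in adults and at 8.93, 11.1, 10.9 and 10.8 CPM in neonatal CD11c-. It reached 18.6, 13.0, 17.1 and 15.3 CPM in neonatal CD11c+, and 23.0, 23.9 and 19.3 CPM in EAE CD11c-. The 3 EAE CD11c+ libraries gave 17.8, 35.6 and 25.5 CPM. Mvd rose in neonatal CD11c+ (log2 fold change 0.84, SE 0.20, adjusted p = 0.00218), in EAE CD11c- (1.30, SE 0.21, adjusted p = 0.000122) and in EAE CD11c+ (1.56, SE 0.21, adjusted p = 1.05e-05), and its highest neonatal CD11c- library lay below its lowest EAE one. The neonatal CD11c+ call was lost without adult library 21 or 23. The kinase acting just before it, Pmvk, was at 10.2, 9.89 and 10.2 CPM in adults and at 14.8, 20.0 and 21.6 CPM in EAE CD11c+, where it rose (log2 fold change 0.90, SE 0.17, adjusted p = 0.000503). In neonates Pmvk was at 10.6 ± 1.94 CPM in CD11c- and 13.6 ± 1.43 CPM in CD11c+ (SD, n = 4 each), with adjusted p-values of 0.764 and 0.0402. Neutrophil markers were 6782 to 13015 CPM in EAE CD11c- and 43.2 to 76.5 CPM in EAE CD11c+. The Mvd levels of these groups overlapped, and the part of neutrophils in them was not tested.

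Among the regulators, the calls fell on Srebf1 and Stard4. Srebf1, the SREBP gene linked mainly to fatty acid synthesis, was at 72.7, 72.9 and 78.0 CPM in adults. Neonatal CD11c+ libraries gave 135, 146, 154 and 152 CPM, all well above the adults (log2 fold change 0.98, SE 0.19, adjusted p = 0.000411). Neonatal CD11c- libraries gave 84.8, 145, 127 and 127 CPM, with the lowest value in library 17, and passed the test less firmly (0.70, SE 0.19, adjusted p = 0.00756): the call was lost on leaving out any 1 adult library (adjusted p up to 0.0336) and any 1 of neonatal libraries 14, 15, 16, 18, 19 and 20. In EAE, CD11c- libraries gave 93.3, 89.7 and 96.4 CPM, above all adults but not past the threshold (adjusted p = 0.276), and CD11c+ libraries gave 53.4, 104 and 103 CPM, with library 1 below the adults. With libraries 1 and 17 left out, Srebf1 passed the test in all 4 groups.

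Stard4, a cytosolic carrier of cholesterol and a known SREBP target, was at 4.28, 4.68 and 4.13 CPM in adults. It was at 10.5, 7.84, 10.5 and 10.2 CPM in neonatal CD11c- and at 15.5, 12.8, 10.2 and 7.48 CPM in neonatal CD11c+. It rose in both (log2 fold change 1.15, SE 0.25, adjusted p = 0.0012, and 1.40, SE 0.24, adjusted p = 0.000118). EAE means were 6.91 ± 0.71 and 7.78 ± 2.17 CPM (SD, n = 3 each), above every adult library, with adjusted p-values of 0.0729 and 0.0163. Srebf2, the SREBP gene linked mainly to sterol synthesis, had no call: its means ran from 51.5 ± 15.8 CPM in EAE CD11c+ to 70.9 ± 9.78 CPM in neonatal CD11c-, against 54.5 ± 0.654 CPM in adults. Scap and Insig2 had no call either, with log2 fold changes between -0.40 and -0.06 and between -0.28 and -0.14 over the 4 groups. Insig1, an SREBP target that retains the SREBP complex, was at 45.2 CPM in neonatal CD11c+ library 16 and at 12.6, 14.4 and 14.7 CPM in the other CD11c+ libraries, and its interval against adult ran from -0.40 to 1.00 on the log2 scale.

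**Figure D2:**
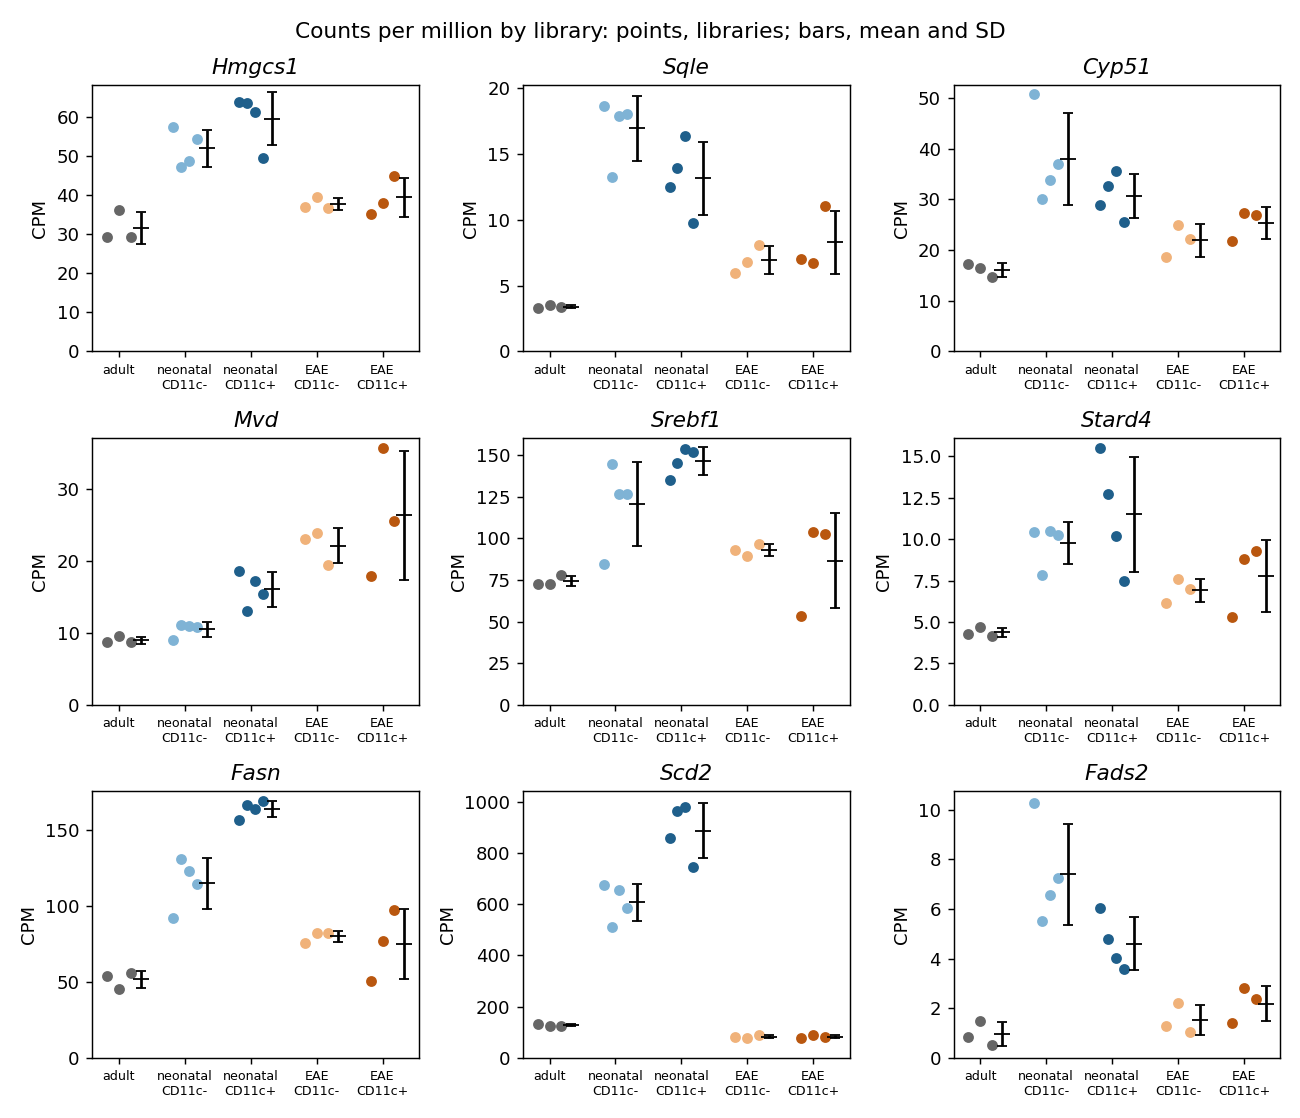
CPM of 9 members in every library (points), with the mean and SD of each group as bars; the groups are on the x axis and each y axis starts at 0. Sqle, Hmgcs1, Fasn and Scd2 separate neonates from adults without overlap, Mvd is highest in EAE, and the low points of Srebf1 and Fasn in neonatal CD11c- and EAE CD11c+ are libraries 17 and 1.

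The fatty acid arm held the largest fold change of each neonatal group against adult, that of Fads2 in CD11c- and that of Scd2 in CD11c+. Scd2, a stearoyl-CoA desaturase that makes monounsaturated fatty acids and is the main desaturase of its family in brain, had the smallest adjusted p of all members in both neonatal groups. Scd2 was at 133, 125 and 126 CPM in adults. It was at 674, 512, 655 and 585 CPM in neonatal CD11c- and at 859, 963, 979 and 745 CPM in neonatal CD11c+. Every neonatal library was thus several times above every adult library, with a 4.74-fold rise in CD11c- (log2 fold change 2.25, SE 0.13, adjusted p = 4.66e-10) and a 6.93-fold rise in CD11c+ (2.79, SE 0.13, adjusted p = 3.05e-11). In EAE the direction was opposite: 81.7, 76.7 and 88.1 CPM in CD11c- and 77.0, 88.6 and 79.3 CPM in CD11c+, all below the adults. Scd2 fell in both EAE groups (log2 fold change -0.64, SE 0.13, adjusted p = 0.00109, and -0.65, SE 0.13, adjusted p = 0.000624). The call in EAE CD11c- was lost without library 5 (log2 fold change -0.59, adjusted p = 0.0108). Per length, Scd2 went from 23.4 ± 0.828 RPKM (CPM per kilobase of exon) in adults to 162 ± 19.8 RPKM in neonatal CD11c+ and 14.9 ± 1.12 RPKM in EAE CD11c+.

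Fasn, the synthase that assembles palmitate, was at 54.2, 45.5 and 55.8 CPM in adults. Neonatal CD11c- libraries gave 92.2, 131, 123 and 115 CPM and CD11c+ libraries gave 157, 166, 164 and 169 CPM. The neonatal subsets did not overlap the adults or each other, and Fasn rose in both (log2 fold change 1.15, SE 0.17, adjusted p = 3.13e-05, and 1.66, SE 0.17, adjusted p = 3.35e-07). In EAE the libraries gave 75.7, 82.3 and 82.3 CPM in CD11c- and 50.8, 77.3 and 97.2 CPM in CD11c+. These values missed the threshold (adjusted p = 0.013 and 0.0218), and Fasn passed it in both EAE groups once EAE CD11c+ library 1, the lowest, was left out.

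Acaca, the carboxylase that makes malonyl-CoA and sets the rate of the arm, was at 5.87, 5.10 and 6.20 CPM in adults. It was at 11.02, 10.2, 13.9 and 9.11 CPM in neonatal CD11c-, 13.0, 14.7, 13.2 and 13.7 CPM in neonatal CD11c+ and 8.97, 11.6 and 11.8 CPM in EAE CD11c-. It rose in all 3 (log2 fold change 0.96, SE 0.18, adjusted p = 0.000488, 1.25, SE 0.18, adjusted p = 1.99e-05, and 0.91, SE 0.19, adjusted p = 0.00158), and the last call was lost without adult library 22 or EAE CD11c- library 5. EAE CD11c+ libraries gave 8.99, 7.51 and 10.9 CPM, also above all adults, with an adjusted p of 0.0112. Of the 50-base stretches of Acaca, 30.4% also occur elsewhere, chiefly in the predicted gene Gm5182, so its counts are uncertain.

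The desaturases of polyunsaturated fatty acids, Fads1 and Fads2, rose in neonates. Fads1 was at 138, 149 and 128 CPM in adults, at 297, 263, 222 and 244 CPM in neonatal CD11c- and at 228, 226, 218 and 192 CPM in neonatal CD11c+. Its log2 fold changes were 0.89 (SE 0.11, adjusted p = 6.24e-06) and 0.64 (SE 0.11, adjusted p = 0.000131). Fads2 was at 0.857, 1.49 and 0.517 CPM in adults, near the detection floor of 3 counts, which was 0.287 to 0.570 CPM depending on the library. It was at 10.3, 5.53, 6.57 and 7.25 CPM in neonatal CD11c- and at 6.02, 4.80, 4.03 and 3.58 CPM in neonatal CD11c+ (log2 fold change 2.89, SE 0.37, adjusted p = 7.24e-06, and 2.23, SE 0.37, adjusted p = 9.05e-05). For both genes the highest value was in library 17. In EAE the means of Fads2 were 1.51 ± 0.612 and 2.19 ± 0.709 CPM (SD, n = 3 each), with libraries that overlapped the adults. Neither group passed the test, at log2 fold changes of 0.65 (SE 0.43, adjusted p = 0.31) and 1.18 (SE 0.43, adjusted p = 0.0367).

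Elovl1, which elongates saturated chains to very long lengths, had smaller changes. Adult libraries gave 81.1, 82.4 and 83.1 CPM. Neonatal libraries gave 105, 99.3, 105 and 108 CPM in CD11c- and 122, 124, 131 and 127 CPM in CD11c+. EAE libraries gave 110, 123 and 127 CPM in CD11c- and 111, 144 and 132 CPM in CD11c+. Elovl1 rose in all 4 groups, by 0.34 (SE 0.10, adjusted p = 0.00945), 0.62 (SE 0.10, adjusted p = 4.63e-05), 0.55 (SE 0.10, adjusted p = 0.000564) and 0.65 (SE 0.10, adjusted p = 6.17e-05) on the log2 scale, in that order of groups. The first of these calls was lost without any 1 of 12 libraries, the 3 adult ones among them. Elovl5, an elongase of polyunsaturated chains, rose in neonatal CD11c- (73.3 ± 19.6 against 44.8 ± 0.969 CPM, adjusted p = 0.00185), where library 17 gave 102 CPM and the others 58.2 to 69.3 CPM. This call was lost without adult library 21 or 23.

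The enzymes that supply acetyl-CoA moved differently from the rest of the arm. Acss2, which makes acetyl-CoA from acetate, ranged from 5.26 to 7.76 CPM in adults and from 2.28 to 2.88 CPM in neonatal CD11c-. It fell there (log2 fold change -1.37, SE 0.23, adjusted p = 0.000148), in neonatal CD11c+ (-0.94, SE 0.22, adjusted p = 0.00176) and in EAE CD11c+ (-0.91, SE 0.24, adjusted p = 0.0058). The neonatal CD11c+ call was lost without adult library 22, and that in EAE CD11c+ without adult library 22 or 23 or EAE CD11c+ library 2 or 3. Acly, which makes acetyl-CoA from citrate, was at 245, 250 and 225 CPM in adults. All neonatal libraries were below this (204 to 218 CPM) and all EAE libraries above it (279 to 363 CPM). The summed astrocyte markers given above lay on the same sides of the adult values, although single markers went both ways in neonates. The part of astrocytes in the Acly levels was not tested. In EAE CD11c+, with 279, 318 and 363 CPM, Acly rose (log2 fold change 0.42, SE 0.10, adjusted p = 0.00308). This call was lost without any 1 adult library or without EAE CD11c+ library 2 or 3 (adjusted p up to 0.0291), and with 310 ± 12.5 CPM (SD, n = 3) EAE CD11c- just missed it (adjusted p = 0.0109).

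**Figure D3:**
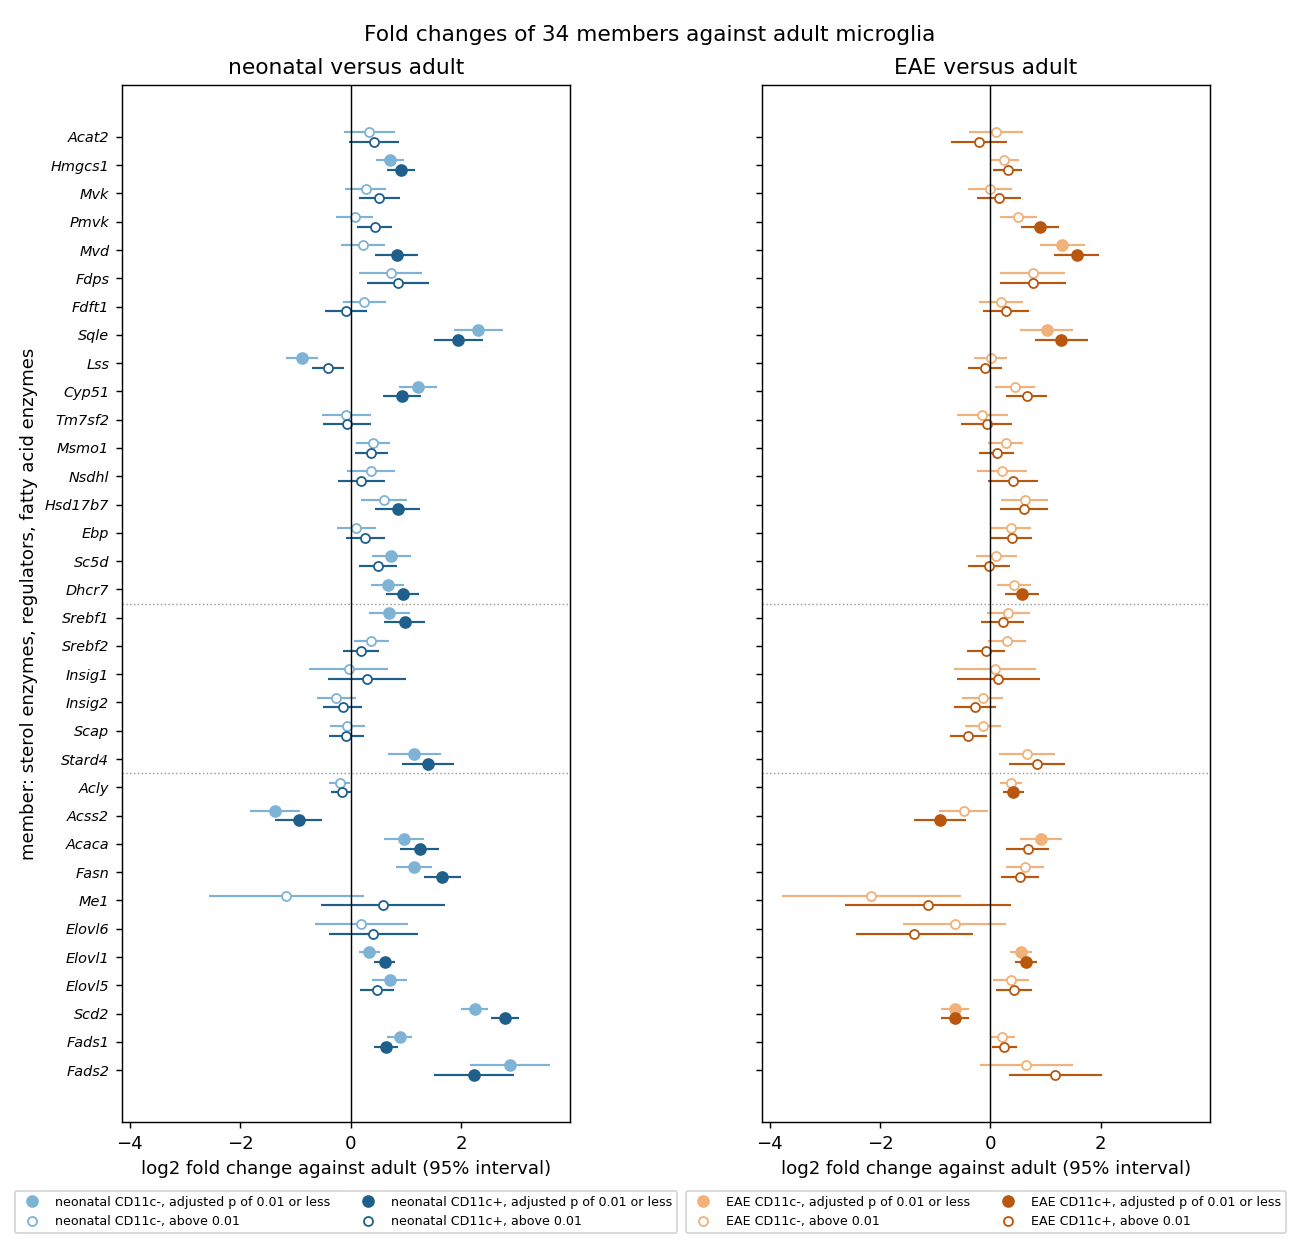
Log2 fold change against adult (x axis) with its 95% interval for 34 members (y axis, in pathway order), in neonates on the left and EAE on the right; filled points passed an adjusted p of 0.01. Scd2 lies at 2.25 and 2.79 in neonates and at -0.64 and -0.65 in EAE, while Mvd is further right in EAE than in neonates. Idi1, which was not tested, and Scd1, which was near the detection floor, are left out.

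Between CD11c+ and CD11c- microglia of the same condition few members passed the test, at shares close to those of all genes. In neonates 2 of the 35 tested members (5.71%) rose in the CD11c+ subset, where 5.58% of all genes rose. In the same comparison 0 members fell, where 2.20% of all genes fell. Scd2 rose by 0.55 (SE 0.11, adjusted p = 0.00207), with every CD11c+ library above every CD11c- one, and this call was lost without CD11c+ library 14 or 15 (adjusted p up to 0.0125). Scd1, a desaturase of the same family, was at 2.33, 1.42, 1.39 and 0.488 CPM in CD11c+, and in CD11c- at 0.190, 0.307 and 0.346 CPM in libraries 17, 18 and 19 and at 0 in library 20. The CD11c- values were at or below the floor of 3 counts, so no fold is given. The test gave an adjusted p of 0.00711, and the call was lost on leaving out any 1 neonatal CD11c- library, any 1 adult library or CD11c+ library 13, 14 or 15. Border macrophage markers were also higher in neonatal CD11c+ (4620 to 7860 CPM) than CD11c- (2394 to 2926 CPM), and their part in these differences was not tested.

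Between the neonatal subsets, Fasn (157 to 169 against 92.2 to 131 CPM, adjusted p = 0.0271), Mvd (adjusted p = 0.0312), Lss (0.0350) and Elovl1 (0.0428) did not pass the test. Their values were higher in CD11c+ without overlap, as were those of Me1, which was near the detection floor (adjusted p = 0.0731). With Scd1 and Scd2, 7 of the 35 tested members did not overlap, and the share of all genes without overlap was not determined. In EAE 0 members rose and 0 fell between CD11c+ and CD11c- (1.70% and 2.63% of all genes), with 1 member higher and 1 lower at an unadjusted p under 0.05. DESeq2 also called 0 members there, and limma voom called 1, Pmvk, as higher in CD11c+. The 95% interval for Scd2 in EAE ran from -0.26 to 0.24 on the log2 scale. The subset effect in neonates minus that in EAE was called for 0 members in either direction (1.45% of all genes rose and 0.107% fell), with 6 positive and 3 negative at an unadjusted p under 0.05. For Scd2 this difference was 0.56 (SE 0.17, adjusted p = 0.0713). A difference between the neonatal and EAE subset effects was therefore not shown for any member in the fit of all libraries. With libraries 1 and 17 left out, 0% of members passed upward. It passed for 1 member, Scd2, once libraries 1, 16 and 17 were left out, an alternative chosen after seeing the data. Library 16 had the lowest Scd2 level of neonatal CD11c+ (745 CPM), so this result is no support for a difference.

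Set directly against each other, the mean of the neonatal groups and the mean of the EAE groups differed for 14 members. In neonates 10 were higher (16.8% of all genes) and in EAE 4 were higher (17.5% of all genes). Higher in neonates were the sterol enzymes Sqle, Hmgcs1, Cyp51 and Sc5d, the regulator Srebf1, and the fatty acid enzymes Scd2, Fasn, Fads1, Fads2 and Elovl6. Scd2 differed most, 8.95-fold (log2 3.16, SE 0.09, adjusted p = 1.33e-14), followed on the log2 scale by Fads2 (1.65, SE 0.24, adjusted p = 1.76e-05) and Elovl6 (1.32, SE 0.34, adjusted p = 0.00381). Elovl6, an elongase of palmitate, was low throughout, with group means of 0.574 to 2.12 CPM and 0 counts in EAE CD11c+ library 1, and its call was lost without EAE CD11c- library 4. Higher in EAE were Mvd (-0.90, SE 0.13, adjusted p = 2.18e-05), Lss (-0.60, SE 0.11, adjusted p = 0.000148), Acly (-0.58, SE 0.07, adjusted p = 1.04e-06) and Pmvk (-0.45, SE 0.12, adjusted p = 0.00355). The Pmvk call was lost without any 1 of libraries 2, 3, 4, 5 and 14. The share of members higher in EAE was 11.4%, below the 17.5% of all genes. Among them Pmvk and Mvd act at adjacent steps of the mevalonate pathway, but other enzymes of that pathway did not follow. Hmgcs1 was higher in neonates, and Mvk (0.33, adjusted p = 0.0554) and Fdps (0.02, adjusted p = 0.935) had no call.

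Summed over each arm, the fatty acid enzymes carried most of the counts. Their summed level was 702 ± 18.7 CPM in adults (SD, n = 3), 1388 ± 87.7 and 1696 ± 132 CPM in neonatal CD11c- and CD11c+ (SD, n = 4 each), and 830 ± 36.9 and 848 ± 86.6 CPM in EAE CD11c- and CD11c+ (SD, n = 3 each). Scd2 made up 18.2% ± 0.693 of the sum in adults, 43.6% ± 3.06 and 52.1% ± 2.43 in neonates, and 9.91% ± 0.83 and 9.68% ± 0.917 in EAE. Without Scd2 the sums were 574 ± 18.1 CPM in adults, 781 ± 34.6 and 809 ± 25.7 CPM in neonates, and 748 ± 37.7 and 766 ± 84.2 CPM in EAE, so that neonatal and EAE libraries overlapped (751 to 832 and 674 to 840 CPM) while all lay above the adults. The sterol enzymes summed to 236 ± 12.3 CPM in adults, 334 ± 29.9 and 351 ± 22.4 CPM in neonates and 301 ± 9.30 and 317 ± 45.5 CPM in EAE. The regulators summed to 278 ± 2.86, 336 ± 64.4, 361 ± 14.2, 302 ± 13.3 and 263 ± 67.7 CPM in the same order, with the lowest libraries of neonatal CD11c- (241 CPM, library 17) and EAE CD11c+ (185 CPM, library 1) those with the highest mitochondrial shares. Sums in CPM weigh long transcripts more and were not tested.

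**Figure D4:**
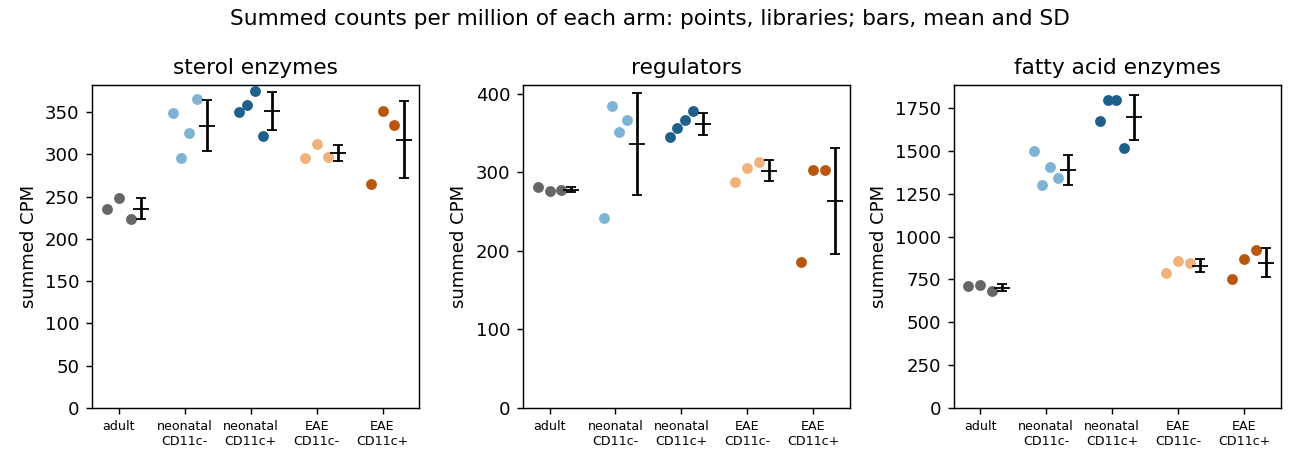
Summed CPM of the 18 sterol enzymes, 6 regulators and 12 fatty acid enzymes in every library (points), with the mean and SD of each group as bars; the groups are on the x axis and each y axis starts at 0. The fatty acid sums of neonates (1300 to 1797 CPM) lie apart from those of adult and EAE libraries (680 to 919 CPM), whereas the sterol sums of neonates and EAE overlap.

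Per length of exon, the highest members in adults were Acly (45.4 ± 2.46 RPKM), Elovl1 (30.2 ± 0.362 RPKM), Fads1 (28.8 ± 2.20 RPKM) and Scd2 (23.4 ± 0.828 RPKM), and in neonatal CD11c+ Scd2 was first, followed by Elovl1 (46.2 ± 1.46 RPKM), Fads1 (44.9 ± 3.44 RPKM) and Acly (40.6 ± 0.90 RPKM). In EAE CD11c+ Acly was first (60.7 ± 7.95 RPKM) and Scd2 (14.9 ± 1.12 RPKM) was no longer among these. Across the 17 libraries, which share depth and group structure, the median Pearson correlation of log2(CPM + 1) was 0.26 over the 153 pairs of sterol enzymes, 0.26 over the 66 pairs of fatty acid enzymes and 0.14 over the 216 pairs between the arms. With group means subtracted these were 0.14, 0.25 and 0.11.

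Other genes of the pathways, 38 of 44 of which passed the filter on low counts, are described for comparison. In neonatal CD11c- 11 rose (28.9%, against 13.4% of all genes) and 2 fell (5.26% against 11.8%). In neonatal CD11c+ 12 rose (31.6% against 18.7%) and 4 fell (10.5% against 14.6%). For EAE CD11c- 5 rose (13.2% against 11.2%) and 1 fell (2.63% against 4.55%). For EAE CD11c+ 8 rose (21.1% against 15.8%) and 1 fell (2.63% against 10.6%). The shares that rose were thus above those of all genes in neonates and closer to them in EAE. Hsd17b12, the ketoacyl reductase of chain elongation, rose by 1.13 (SE 0.14, adjusted p = 5.67e-06) in neonatal CD11c- and by 1.29 (SE 0.14, adjusted p = 7.98e-07) in CD11c+. Idh1, which supplies cytosolic NADPH, rose by 0.67 (SE 0.11, adjusted p = 0.000116) and 1.38 (SE 0.11, adjusted p = 1.69e-08). The elongation dehydratase Hacd1 rose by 2.47 (SE 0.41, adjusted p = 0.000137) in neonatal CD11c-. In neonatal CD11c+ Mlxipl, a glucose-responsive activator of lipogenic genes, fell by 1.71 (SE 0.17, adjusted p = 2.92e-07) on the log2 scale.

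In EAE the lowest adjusted p belonged to Mid1ip1, an activator of acetyl-CoA carboxylase, which fell by 0.87 (SE 0.14, adjusted p = 0.000109) in CD11c- and by 1.58 (SE 0.14, adjusted p = 8.51e-08) in CD11c+. Pdss1, a synthase of the ubiquinone side chain, rose by 1.16 (SE 0.19, adjusted p = 0.000215) and 1.25 (SE 0.20, adjusted p = 6.19e-05), and the dehydratase Hacd2 by 0.93 (SE 0.19, adjusted p = 0.00138) and 1.08 (SE 0.19, adjusted p = 0.000245). Between the neonatal subsets, Idh1 (0.71, SE 0.10, adjusted p = 8.28e-05) and Rxra, a partner of lipid-sensing nuclear receptors (0.77, SE 0.12, adjusted p = 0.000181), rose in CD11c+. For the subset effect in neonates minus that in EAE, the difference was positive and passed the test for 3 genes. They were Idh1 (0.92, SE 0.15, adjusted p = 0.00214), Rxra (0.91, SE 0.18, adjusted p = 0.00655) and the elongase Elovl7 (adjusted p = 0.003). A positive difference can hold a rise in neonates, a fall in EAE or both. Between the EAE subsets, 0 of these other genes rose and 3 fell in CD11c+ (7.89%, against 2.63% of all genes).

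Some members could not be measured well. Idi1, an isomerase of the mevalonate pathway, had 0 to 7 counts per library and was not tested. Me1, which supplies NADPH, had 0 to 19 counts, and its group means were 0.198 to 1.28 CPM. The transcripts of Acat2 (39.1% of 50-base stretches, with Acat3 and Tcp1), Me1 (28.3%), Fdft1 (26.5%, chiefly with the antisense neighbour Ctsb), Fdps (26.2%) and Idi1 (25.3%) share sequence with other genes, so their counts are uncertain. Scd1 and Scd2 shared 4.56% and 3.97% of theirs, with each other and with Scd3 and Scd4.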

How the data were processed

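RNA from sorted, pooled microglia was sequenced as single 50-base reads from TruSeq libraries. The processing notes name STAR 2.3.11, HTSeq 0.5.4 and GRCm38. The kit and counting do not state strand, so antisense overlaps could not be separated. The authors deposited raw counts per Ensembl gene, 1 file per library (17 in all). Symbols were matched with the GENCODE M21 names, and CPM and RPKM were computed from the counts. The 13060 genes that reached a CPM of 1 in 3 or more libraries entered edgeR 4.0.16 (glmQLFit, R 4.3.3), TMM scaling and 1 model of 5 groups; 95% intervals use the normal quantile. Fold changes of low genes depend on the prior count. The members and lists were chosen with earlier results of these data known. Library values are given for members among the 3 smallest adjusted p-values of their arm in a pairwise comparison, if past 0.01, and up to 4 other pathway genes are named per comparison. Totals of 5115489 to 10436066 counts set the precision of low genes, and the floor of 3 counts covers counting error only. The study describes each library as a pool of mice from several immunisations and cell sorts but does not tie single libraries to them, so p-values measure the spread between these libraries. A microglial marker is not reported here. The script was tested on simulated data. DESeq2 1.42.0 and limma 3.58.1 (voom with quality weights for libraries) served as alternatives.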

Additional observations from a re-analysis of the deposited data

Results flagged for a closer look

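In 72 groups of 4 libraries (36 members in both neonatal subsets), 6 had a library whose gap to the nearest other exceeded Dixon's 95% critical share of the group's range, where chance gives about 1 in 20. In neonatal CD11c- these were Mvd (8.93 CPM) and Insig2 (17.9 CPM) in library 17, Sqle (13.2 CPM) and Stard4 (7.84 CPM) in library 18, all the lowest of their group, and Dhcr7 (48.7 CPM) in library 20, the highest. In neonatal CD11c+ it was Insig1 in library 16 (45.2 CPM), the highest. Library 17 also had 5.10% mitochondrial counts. Its part in these values was not tested.

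In 2 members every neonatal library lay on one side of every adult library and every EAE library on the other. The share of all genes that meet this rule was not determined. Scd2 was above adult in neonates and below it in EAE (neonatal minus EAE, log2 3.16), and Acly was below adult in neonates and above it in EAE (-0.58). The difference between neonates and EAE passed the test for both (edgeR, adjusted p = 1.33e-14 and 1.04e-06), but the neonatal values of Acly taken alone did not differ from adult by the test (adjusted p = 0.104 and 0.17).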

How the results depend on the processing

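No paired analysis was possible because the library numbers in the titles do not repeat between groups. The numbers of members that rose or fell in neonates against adult, and in neonates against EAE, stayed within 1.5 times under every alternative, except members that fell in neonatal CD11c+ (1): 2 with limma voom or an adjusted p of 0.05, and 0 to 1 on leaving out single libraries (0 without adult library 22). The EAE counts were less stable. With limma voom the shares of members that rose in EAE were above those of all genes (34.3% against 18.4% in CD11c-, 48.6% against 23.4% in CD11c+). Members that rose in EAE CD11c- (4) were 12 with limma voom, 10 with only the groups compared, 8 at an adjusted p of 0.05, 9 without libraries 1 and 17, 10 without libraries 1, 16 and 17 (an alternative chosen after seeing the data), and 2 to 7 without single libraries, 2 without adult library 22 or EAE CD11c- library 5 and 7 without EAE CD11c+ library 1. Members that rose in EAE CD11c+ (6) were 17 with limma voom, 12 at an adjusted p of 0.05, 12 without libraries 1 and 17 or 1, 16 and 17, and 4 to 10 without single libraries, 10 without library 1. Members that fell were 0 to 1 in EAE CD11c- (1 in the main fit, 0 without its library 5) and 1 to 3 in EAE CD11c+ (2 in the main fit, 1 with no filter on low counts, with only the groups compared, or without adult library 22 or 23 or EAE CD11c+ library 2 or 3) on leaving out single libraries. Between neonatal subsets, members that rose (2) were 1 with a CPM minimum of 5, 0 with only the groups compared, 6 at an adjusted p of 0.05, and 0 to 4 without single libraries, 0 without CD11c+ library 14 or 15. In EAE limma voom called 1 in place of 0, and the subset effect differed for 1 member at an adjusted p of 0.05 and for 1 without libraries 1, 16 and 17. Of 782 alternative values for single members, 743 kept direction and call, 39 kept direction only, and 0 reversed. The cause of these changes was not tested. Low counts limit Idi1, Me1, Scd1, Elovl6 and adult Fads2.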
